A study of Mus musculus with 16 samples.

Results

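High-density lipoprotein (HDL) is built in the blood around apolipoprotein A-I, the protein that Apoa1 encodes. Lcat encodes lecithin-cholesterol acyltransferase and Pltp encodes phospholipid transfer protein, a pair of plasma proteins that remodel the particle. The genes were taken as all probes of the array whose only gene symbol was Apoa1, Lcat or Pltp. There were 3 such genes, with 1 probe each, of 8923 genes and unnamed probes on the array. All 3 had a value on each of 16 arrays, and all 3 passed the filter on blank values.

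Liver and intestine secrete apolipoprotein A-I, which takes up phospholipid and cholesterol from cells through the transporter Abca1 and becomes a small disc of HDL. Lcat, made mainly by hepatocytes, esterifies cholesterol on that disc with apolipoprotein A-I as its activator, so that the ester moves into the core and the particle becomes a sphere. Pltp moves phospholipid from triglyceride-rich lipoproteins to HDL and fuses HDL particles; it is made in liver and many other tissues, including macrophages. The Pltp gene is known to be induced by the bile acid receptor FXR and the oxysterol receptor LXR, and Apoa1 is regulated by HNF4A and several nuclear receptors. The diterpene cafestol of unfiltered coffee raises blood cholesterol and is reported to act on FXR and PXR.

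The animals were female APOE3Leiden (E3L) mice, a transgenic strain, mainly of C57BL6/JIco background, that expresses a human variant of apolipoprotein E. Treated and control mice alike carried the transgene, were 10 weeks old at the start and ate diet W, a Western-type diet with 15% saturated fat and 0.25% cholesterol by weight, for 4 weeks. The 8 treated mice also received cafestol at 0.04% and kahweol at 0.02% of the diet by weight, always together, so the effects of these diterpenes cannot be told apart. Each treated liver was hybridised on 2 two-colour arrays, treated RNA in Cy5 and liver RNA of the control group (7 mice) in Cy3. No label names single control mice, so a ratio was tested against 0 and the spread among control mice is not in that test. The labels do not name the promoter that drives the transgene.

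The deposited values are log2 ratios, and the labels do not say which channel stands on top. Signs are therefore printed as deposited. For orientation, the glutathione S-transferase gene Gstm1, a class of gene that these diterpenes are known to induce in rodents, stood at -2.48 ± 0.23 (SD, n = 8 mice). Cyp7a1, the bile acid enzyme gene that cafestol is known to lower, stood at 1.56 ± 0.38 (SD, n = 8). If those genes moved here as known, a negative ratio means more transcript in the treated liver, but no test independent of them was made. All ratios are rounded to 1 decimal before the logarithm, so the smallest step away from a ratio of 1.0 is 1.1, or 0.138 on the log2 scale. No dyes were swapped, so a dye effect of a probe cannot be told apart from the diets. Hepatocyte identity could not be checked, because a ratio carries no level; 12 of 18 listed hepatocyte markers had a tested ratio.

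Across the 8 mice all 3 genes lay on the negative side. Pltp was farthest from 0, Apoa1 came next and varied most from mouse to mouse, and Lcat lay 1 rounding step from 0. The mean log2 ratios were -0.66 ± 0.15 for Pltp, -0.52 ± 0.35 for Apoa1 and -0.14 ± 0.10 for Lcat (SD, n = 8 mice each). Of 8348 genes and unnamed probes tested, 25.4% were called negative and 18.0% positive at an adjusted p of 0.05, or 43.4% in all, so a call is common on these arrays. Sizes like those of Pltp and Apoa1 were rare. In whole liver, a change in the number of cells of a type and a change in RNA per cell cannot be told apart.

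The DNA just before the start of each gene is shown because the 3 genes share a sign here and their regulators are known. Each window is the 180 bases before the transcription start on the gene's strand, from RefSeq on build GRCm38.p6; all 3 genes matched. The Apoa1 window is chr9:46228450-46228629 on the plus strand, the Lcat window is chr8:105943403-105943582 and the Pltp window is chr2:164857709-164857888, both on the minus strand. No other annotated gene overlaps the windows. Capitals mark matches, on either strand, to 6 motifs. The core promoter element TATAAA was searched, with the box of nuclear factor Y spelled CCAAT and the Sp1 box spelled GGGCGG. The other 3 were nuclear receptor hexamers. These hexamers were the consensus AGGTCA, the variant AGTTCA, and the further variant GGGTCA. No matches overlapped each other.
Apoa1: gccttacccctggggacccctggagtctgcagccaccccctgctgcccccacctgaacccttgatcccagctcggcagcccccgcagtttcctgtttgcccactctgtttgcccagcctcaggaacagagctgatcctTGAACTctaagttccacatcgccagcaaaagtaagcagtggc
Lcat: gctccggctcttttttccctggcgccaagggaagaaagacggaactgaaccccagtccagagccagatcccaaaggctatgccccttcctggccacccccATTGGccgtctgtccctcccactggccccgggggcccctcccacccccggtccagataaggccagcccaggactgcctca
Pltp: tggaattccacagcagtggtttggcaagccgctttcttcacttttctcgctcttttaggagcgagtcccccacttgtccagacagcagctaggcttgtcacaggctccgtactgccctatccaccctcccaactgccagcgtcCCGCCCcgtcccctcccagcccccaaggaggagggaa

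The Apoa1 window held a single match, to AGTTCA on the opposite strand, at 42 to 37 bases before the start. Any of the 3 hexamers occurs in 24.8% of 32851 RefSeq windows of the same length, and AGTTCA in 8.25%. In the Lcat window the only match was CCAAT, on the opposite strand at 80 to 76 bases before the start, which 27.5% of windows hold. Pltp had 1 match to GGGCGG on the opposite strand at 37 to 32 bases before the start, found in 30.2% of windows. TATAAA, in 8.94% of windows, was in none of the 3, and neither were AGGTCA (10.3%) or GGGTCA (8.61%). The windows thus shared no match among these letters. Their GC content, 60.6% for Apoa1, 65.6% for Lcat and 60.0% for Pltp, was above the median of 53.3% over all windows.

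Apoa1 encodes the structural protein of HDL (Entrez 11806, chromosome 9, 46228630 to 46230469 on GRCm38.p6). In the SY mice, 1 of the 2 series of identifiers in the sample titles, its log2 ratio averaged over the 2 arrays was -0.43 in SY518Z, -0.26 in SY521RL, -0.77 in SY522ROB and -0.58 in SY524ROB+L. The TP mice gave -0.26 in TP4163, -1.17 in TP4168, -0.63 in TP4205 and -0.07 in TP4215. Every mouse was negative, and TP4168 and TP4215, the lowest and the highest, came from the same series. As ratios, the 2 arrays of TP4168 read 2.2 and 2.3, while those of TP4215 read 1.1 and 1.0. Duplicate arrays of a mouse never differed by more than 0.14, so the spread of 0.35 among mice was larger than the spread between arrays of the same RNA. Only 0.922% of all features tested had a larger SD over mice.

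The mean of -0.52 for Apoa1 is a 1.44-fold difference (limma, adjusted p = 0.00114). An exact sign-flip permutation test over the 8 mice gave p = 0.00781, two-sided, the smallest it can give. Only 1.11% of features lay as far from 0 on either side, and Apoa1 ranked 53 from the lowest of 8348. The mean was -0.43 without TP4168, and the call held with each mouse left out in turn (limma, adjusted p 0.000537 to 0.00394). Against a minimum difference of 1.2-fold it did not pass (limma, adjusted p = 0.371), nor in the TP mice alone (mean -0.53, limma adjusted p = 0.0841). It stayed called when the 7 control mice were given the same spread as the treated mice (limma, adjusted p = 0.0221), a setting in which 12.9% of features were called negative.

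Lcat encodes the plasma enzyme that esterifies HDL cholesterol (Entrez 16816, chromosome 8, 105939551 to 105943402). Its ratio was 0.00 in SY518Z, -0.26 in SY521RL, -0.20 in SY522ROB and -0.14 in SY524ROB+L. In the other series it was 0.00 in TP4163, -0.26 in TP4168, -0.14 in TP4205 and -0.14 in TP4215. Negative values were thus found in 6 of 8 mice and on 12 of 16 arrays, and both mice at 0 read 1.0 on both their arrays. No array gave a ratio above 1.2, so each Lcat value lies at 0, 1 or 2 steps of the rounding. The 2 arrays of a mouse were identical in 7 of 8 mice, and in the remaining one, SY522ROB, they read 1.1 and 1.2.

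With a mean of -0.14 the difference for Lcat was 1.1-fold (limma, adjusted p = 0.00775). The exact sign-flip permutation test gave p = 0.0312, two-sided, the smallest it can give with SY518Z and TP4163 at 0.00. Differences of that size were common: 29.5% of features lay as far from 0. Its SD of 0.10 was close to the median of 0.11 over all features. The call held without any 1 mouse (limma, adjusted p 0.00511 to 0.0257) but not once the spread of control mice was allowed for (limma, adjusted p = 0.0762), nor in SY mice (adjusted p = 0.0867) or TP mice (adjusted p = 0.082) alone.

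Pltp encodes the protein that feeds phospholipid into HDL and enlarges it (Entrez 18830, chromosome 2, 164839518 to 164857708). It stood at -0.72 in SY518Z, -0.68 in SY521RL, -0.92 in SY522ROB and -0.77 in SY524ROB+L. The TP values were -0.49 in TP4163, -0.54 in TP4168, -0.68 in TP4205 and -0.49 in TP4215. All 16 arrays were negative, from a ratio of 1.4 on both arrays of TP4163 and of TP4215 to 2.0 on 1 array of SY522ROB, whose other array read 1.8. TP4168, the lowest mouse for Apoa1, was among the 3 mice nearest to 0 for Pltp, while SY522ROB was the lowest for Pltp and the second lowest for Apoa1.

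**Figure D1:**
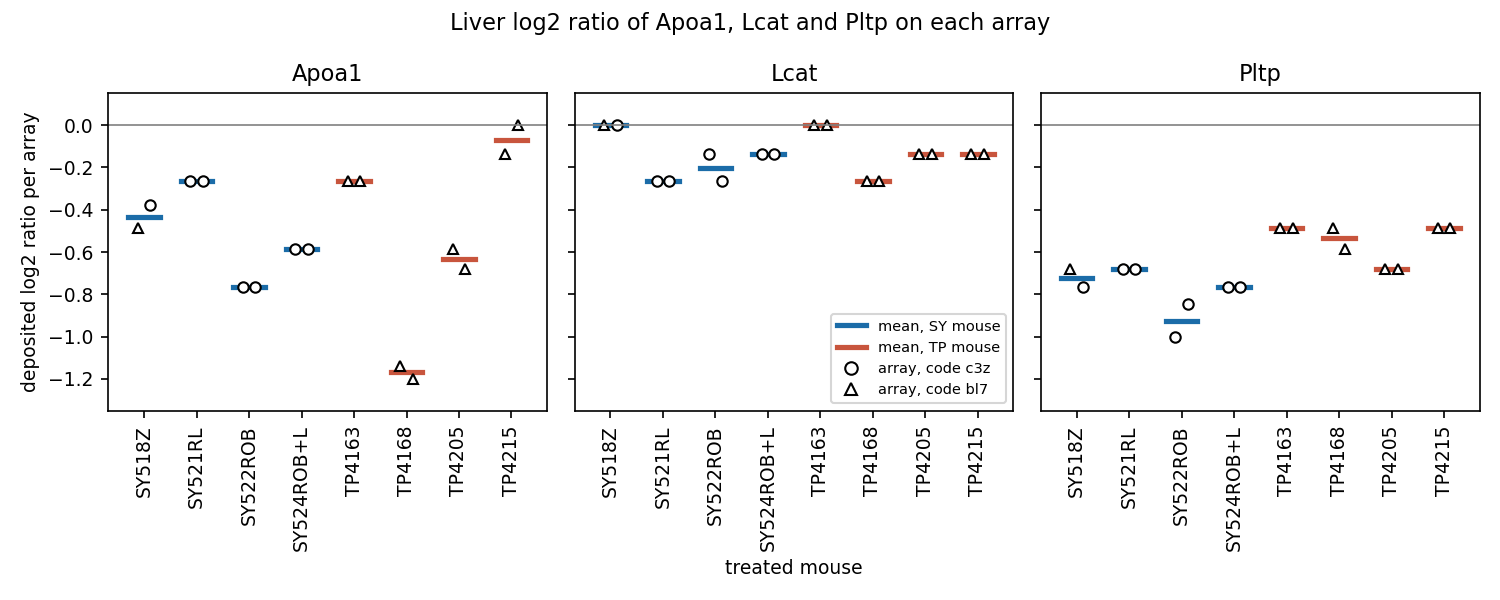
Deposited log2 ratio of Apoa1, Lcat and Pltp on each array (points; circles for array code c3z, triangles for bl7) and its mean for each of 8 treated mice (bars; blue SY, red TP). Pltp is negative on all 16 arrays, Apoa1 runs from -0.07 to -1.17 across mice, and Lcat is at 0.00 in 2 mice.

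The mean of -0.66 for Pltp is a 1.58-fold difference (limma, adjusted p = 2.46e-06; exact sign-flip permutation p = 0.00781, two-sided, the smallest it can give). Only 0.479% of features lay as far from 0, and Pltp ranked 23 from the lowest of 8348. Against a minimum of 1.2-fold it was the only one of the 3 genes called (limma, adjusted p = 0.000457), where 0.815% of features were called negative. It stayed called with the spread of control mice allowed for (limma, adjusted p = 0.000165), in SY mice alone (mean -0.77, limma adjusted p = 0.00461) and in TP mice alone (mean -0.55, limma adjusted p = 0.00606). A negative ratio in all 8 mice, which Apoa1 and Pltp had and Lcat did not, was found for 10.8% of features.

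**Figure D2:**
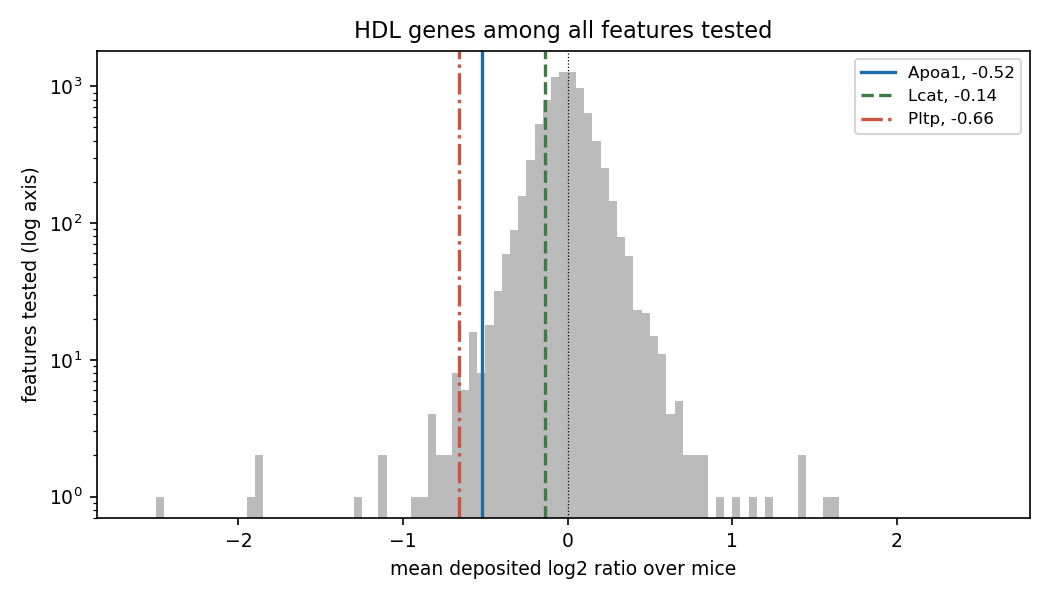
Mean deposited log2 ratio over mice (x axis) of the 8348 genes and unnamed probes tested, counted on a log axis, with lines at Apoa1, Lcat and Pltp. Pltp at -0.66 and Apoa1 at -0.52 lie in the left tail, and Lcat at -0.14 lies in the body of the distribution.

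The 3 genes were then compared within each mouse, as differences between their log2 ratios, in 3 pairs. Pltp lay below Lcat in 8 of 8 mice, by -0.52 ± 0.17 (SD, n = 8; exact sign-flip permutation test, two-sided p = 0.00781, adjusted p = 0.0234 over the 3 pairs), from -0.72 in SY518Z and SY522ROB to -0.27 in TP4168. Apoa1 lay below Lcat in 6 of 8 mice, by -0.38 ± 0.31 (exact permutation p = 0.0312, adjusted p = 0.0469); the pair was equal in SY521RL, and Lcat was 0.07 lower in TP4215. That call ended when SY518Z, TP4168, SY524ROB+L, TP4205, SY522ROB or TP4163 was left out (exact permutation, adjusted p 0.0625 to 0.0938), the mean being -0.30 without TP4168. Pltp and Apoa1 were not separated: the difference was -0.14 ± 0.34 (exact permutation p = 0.281, adjusted p = 0.281), with a 95% interval of -0.42 to 0.14. Pltp was the lower of them in 7 of 8 mice, and TP4168 was the exception at 0.63. Without TP4168 that difference was -0.25 and passed (exact permutation, adjusted p = 0.0234).

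**Figure D3:**
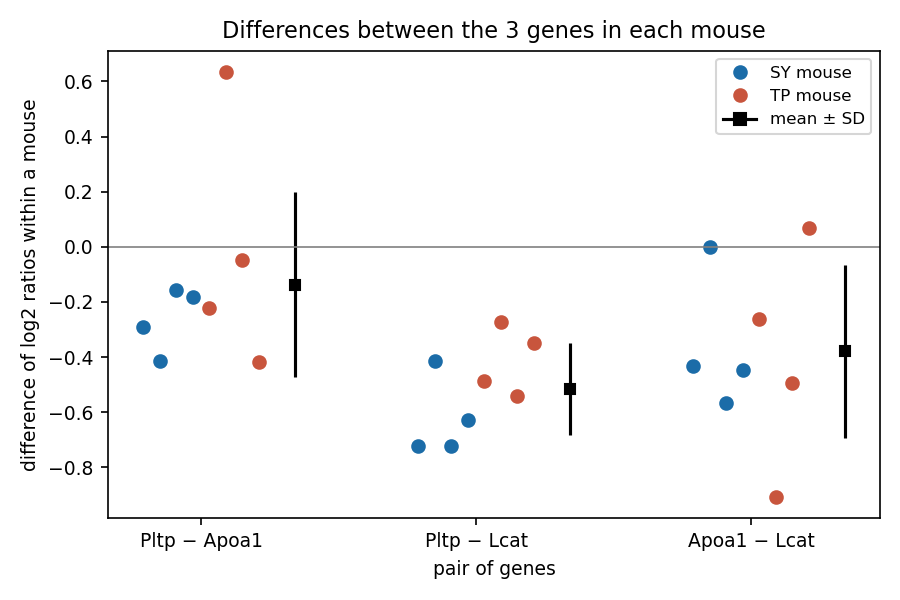
Difference between the log2 ratios of 2 genes in each mouse (y axis; blue SY, red TP mice) for the 3 pairs, with the mean ± SD over 8 mice as black squares. All 8 mice lie below 0 for Pltp minus Lcat, and TP4168 lies alone at 0.63 for Pltp minus Apoa1.

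No correlation between the genes across mice passed its test. Between Pltp and Apoa1 Pearson's r was 0.29 (exact permutation p = 0.494, adjusted p = 0.689 over 3 relations) and Spearman's rho was 0.50 (exact permutation p = 0.214, adjusted p = 0.471). For Apoa1 and Lcat r was 0.45 (exact permutation p = 0.248, adjusted p = 0.689) and rho 0.41 (exact permutation p = 0.314, adjusted p = 0.471). Pltp and Lcat gave an r of 0.17 (exact permutation p = 0.689, adjusted p = 0.689) and a rho of 0.14 (exact permutation p = 0.743, adjusted p = 0.743). Leaving out the 2 mice farthest from the median of the first gene of each pair changed r to -0.18, 0.26 and 0.03 in that order (n = 6 mice). For both Pltp pairs these mice were SY522ROB and TP4215, although TP4163 lay as far out as TP4215, and TP4168 stayed in. For Apoa1 and Lcat they were TP4215 and TP4168. Series of 4 mice are too small for a correlation within each.

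SY and TP mice, whose difference no label states, were compared for each gene. The codes in the array names nearly follow the series: TP mice have bl7 arrays and SY mice c3z arrays, but SY518Z has 1 of each. Apoa1 averaged -0.51 in SY and -0.53 in TP mice, a difference of 0.02 (SE 0.19; limma, adjusted p = 0.955), although its SD was 0.21 in SY and 0.48 in TP mice. Lcat averaged -0.15 and -0.13 (limma, adjusted p = 0.891). Pltp averaged -0.77 in SY and -0.55 in TP mice, a difference of -0.23 (SE 0.07; limma, adjusted p = 0.0711; exact relabelling permutation p = 0.0571, two-sided). The Pltp values of the series met at -0.68, the value of SY521RL and TP4205. This difference passed once SY518Z was left out (limma, adjusted p = 0.0477), and also with arrays scaled to a common SD or quantile normalized; 5.70% of features passed in the comparison as a whole, or 476, a count that ran from 43 without SY521RL to 1249 without SY518Z and was 0 on the 1st array of each mouse (limma; 1467 of 8175 at an unadjusted p under 0.05). In SY518Z itself Pltp read -0.77 on the c3z array and -0.68 on the bl7 array. Over c3z arrays alone the Pltp mean was -0.78 and over bl7 arrays alone -0.57, so the code and the series cannot be told apart.

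Of 24 other genes of HDL metabolism measured, 8 were called negative, 4 positive and 12 neither, shares near the 25.4% negative and 18.0% positive of all features tested. Their median was -0.04, against -0.02 for all features. With the spread of control mice 6 stayed negative and 2 positive, and Apoa5, Atp5b, Abcg1 and Abca1 lost their calls (12.9% of all features were negative and 8.80% positive in that setting). Among apolipoproteins, the closest relatives of Apoa1 in role, Apoe was at -0.41 ± 0.12, and its probe may also bind the human transgene's transcript. Apoa5, an activator of triglyceride hydrolysis, was at 0.23 ± 0.24 (limma, adjusted p = 0.0183; 0.0509 without TP4205). Apoa2, the other main protein of HDL, did not pass (-0.09 ± 0.22, limma adjusted p = 0.293) but did without SY518Z (-0.16, limma adjusted p = 0.00407); it was named for its role after its value was seen. Clu, an HDL-bound chaperone, was at -0.33 ± 0.22, and Saa3, an acute phase apolipoprotein, at -0.36 ± 0.24. The other apolipoproteins measured were not called. Of these the means of Apoc2 and Apod lay below 0 and those of Apof, Apoh and Apoc4 above it.

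Among enzymes, the counterparts of Lcat, lipoprotein lipase Lpl was at -0.47 ± 0.24 and nearest to Apoa1 in size. The HDL-bound esterase Pon3 was at -0.21 ± 0.10, while its relative Pon2 was at 0.15 ± 0.07. Bmp1, the protease that cuts the propeptide of apolipoprotein A-I, was at 0.17 ± 0.06, on the side opposite to Apoa1. Of the sterol transporters that load HDL, Abcg1 was at -0.20 ± 0.21 and Abca1 at -0.08 ± 0.07 (limma, adjusted p = 0.0485), both far smaller in size than Pltp. Abcg1 lost its call without SY521RL, SY518Z, SY524ROB+L or SY522ROB (limma, adjusted p 0.0508 to 0.0632). Abca1 lost it without any 1 mouse but SY524ROB+L or SY522ROB (limma, adjusted p 0.065 to 0.122) and after centring, scaling or quantile normalization. The remaining called genes, named after their values were seen, were Nceh1 (-0.14 ± 0.08) and Atp5b (0.14 ± 0.13). Scarb1, the liver's HDL receptor, did not pass (-0.06 ± 0.09, limma adjusted p = 0.161), and was also named for its role.

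**Figure D4:**
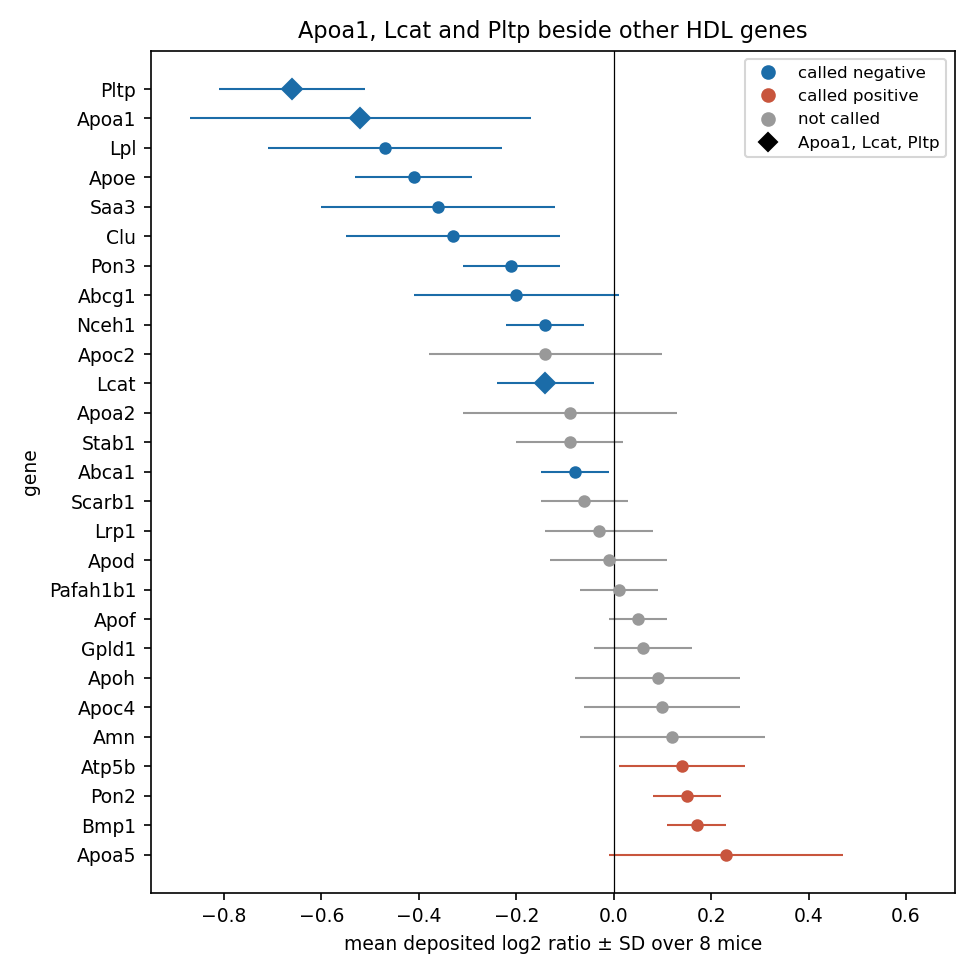
Mean deposited log2 ratio ± SD over 8 mice (x axis) of Apoa1, Lcat and Pltp (diamonds) and the other 24 HDL genes measured (circles), blue for called negative, red for called positive and grey for neither. Pltp and Apoa1 have the lowest means, followed by Lpl at -0.47.

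Transcription factors known to act on these promoters had ratios closer to 0 than Pltp and Apoa1, as had nearly all features. Only 1.11% of features lay as far from 0 as Apoa1 and 0.479% as far as Pltp. Of 24 measured, 4 were called negative and 6 positive (median 0.04), against 25.4% and 18.0% of all features. With the spread of control mice 1 of each stayed called, Pparg and Ppargc1a. The FXR gene Nr1h4 was at 0.19 ± 0.15, the PXR gene Nr1i2 at 0.22 ± 0.20, the coactivator gene Ppargc1a at 0.20 ± 0.05 and Pparg at -0.19 ± 0.08. Hnf4a, a known activator of Apoa1, was at 0.10 ± 0.08 and lost its call without SY522ROB or TP4163 (limma, adjusted p 0.0571 and 0.0629). Sp1 (0.12) lost its call without any 1 mouse but SY524ROB+L (limma, adjusted p 0.0533 to 0.102). Rora (-0.09) lost it without SY518Z, TP4215, SY524ROB+L, TP4205 or SY522ROB (limma, adjusted p 0.0505 to 0.104). Rxrb (-0.09) lost it without TP4205 or TP4163 (limma, adjusted p 0.0577 and 0.059). Each of these 3 also lost it under 1 of 3 other scalings of the arrays.

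Other genes induced by LXR, to which Pltp belongs, did not share 1 sign: of 13 measured 7 were called negative and 3 positive (median -0.14), against 25.4% and 18.0% of all features. With the spread of control mice 4 stayed negative and 3 positive. They ran from Lpl at -0.47 to Cyp7a1 at 1.56, with Scd1 at -0.33, Abca7 at -0.30, Abcg5 at 0.44 and Mlxipl at 0.66 between them. Genes induced by FXR, to which Pltp belongs as well, had 1 of 12 called negative, Fgf15 at -0.18, and 4 positive, Slc27a5 (0.50), Baat (0.30), Fgb (0.23) and Sdc1 (0.21), with a median of 0.01, beside 25.4% negative and 18.0% positive of all features. All 5 stayed called with the spread of control mice. The lowest of the 12 FXR genes was Abcb4 at -0.19, nearer to 0 than Pltp at -0.66. That holds for nearly all features, as only 0.479% lay as far from 0 as Pltp. Abcb4 was not called, but was without SY521RL (-0.27, limma adjusted p = 0.0458) or SY524ROB+L (-0.28, limma adjusted p = 0.0296).

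Markers of liver cell types were read beside Apoa1, Lcat and Pltp, with the 25.4% negative and 18.0% positive of all features as background. Macrophages, one source of Pltp, had 10 of 15 markers called negative and 2 positive (median -0.19), and the median of these markers ran from -0.38 to 0.14 across mice. Cd68 (-0.65) was as low as Pltp, while the Kupffer cell markers Clec4f (-0.05) and Adgre1 (-0.03) were not called. The 2 markers called positive, on the side opposite to Pltp, were Cd163 and Spi1. With the spread of control mice 8 of the 10 stayed negative and both positive ones stayed, and the counts were also 8 and 2 for calls that held with each single mouse left out in turn. Stellate cell markers had 8 of 13 negative and 0 positive (median -0.20), bile duct markers 4 of 7 negative and 1 positive (median -0.11), and endothelial markers 2 of 8 negative and 1 positive (median -0.03). With the spread of control mice 4 stellate, 2 bile duct and 2 endothelial markers stayed negative and none of these lists kept a positive one. With each single mouse left out in turn 6, 2 and 2 stayed negative, and the 1 positive bile duct marker stayed positive. Hepatocyte markers, which share their main source with Apoa1 and Lcat, had 0 of 12 negative and 5 positive (median 0.13), of which 3 stayed positive in each of these settings. Intestinal epithelium, the other source of Apoa1, had 1 of 3 measured markers called, positive. The part of these markers in the ratios of the 3 genes was not tested.

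The genes whose ratios followed each of the 3 most closely over the 8 mice were named as the 3 highest by Pearson's r among 1183 named genes with an SD of at least 0.15. They are given as a description, over arrays that share their control RNA. For Apoa1 they were the murinoglobulins Mug2 (r = 0.93) and Mug1 (r = 0.89), plasma protease inhibitors, and Gstp1 (r = 0.88). Their mean ratios differed widely from that of Apoa1, at 0.08, 0.05 and -1.88. For Lcat, whose values take few levels, they were Igfbp2 (r = 0.87), Serpinf2 (r = 0.84) and St6gal1 (r = 0.78). For Pltp they were Smarcal1 (r = 0.92), Arsb (r = 0.90) and Ttc19 (r = 0.90), whose mean ratios were 0.12, 0.03 and 0.00. Of the 1183 genes, 1 had an r over 0.9 with Apoa1, 0 with Lcat and 4 with Pltp. How many would do so over 8 mice with no relation was not tested.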

How the data were processed

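Liver poly(A) RNA of 8 treated mice was measured on 16 two-colour cDNA arrays. The values deposited by the authors are log2 ratios between channels. How they were scanned, background corrected and normalized, their direction and the reason for blanks are not given in these sources. Each of the 144660 values is the signed logarithm of a ratio rounded to 1 decimal (tolerance 0.01 on 10-fold the ratio), and 31.8% are 0. Medians were 0 on all 16 arrays and no further scaling was applied. Per array 8094 to 9314 probes had a value; the number of arrays limits the precision. Arrays of the same mouse correlated at 0.75 to 0.91 and those of different mice at 0.15 to 0.81 over all probes.

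Probes were named from the platform annotation of GEO, updated through Entrez identifiers in a RefSeq table of GRCm38.p6 (0 symbols changed): 7407 had 1 symbol, 437 several and 1752 none. Probes of 1 gene were averaged, then the 2 arrays of a mouse. Features with values in under 6 of 8 mice were left out (575), and 8348 were tested against 0, and between SY and TP mice, with limma 3.58.1 in R 4.3.3 (lmFit, eBayes, two-sided, Benjamini-Hochberg over all features, threshold 0.05). Pairs of members used exact sign-flip tests. The fits were tested on simulated data. P-values measure the spread among treated mice only. The members and gene lists were chosen with earlier results of these data known, so lists carry no test. Of each list up to 8 called genes, by size, were to be named. Alternatives covered centring, scale, quantile normalization, probes, blanks, robust moderation, single mice and arrays, array codes, arrays blocked by mouse, a minimum fold of 1.2 and control spread. Counts over the other HDL genes (5 settings) and over the other lists (control spread) were rerun as alternatives chosen after seeing the data. So were genes with a value in the text that differed between SY and TP mice, and uncalled ones (mice left out).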

Additional observations from a re-analysis of the deposited data

Results flagged for a closer look

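Of 49 genes searched, which include every gene with a value in the text, 4 differed between SY and TP mice. The other HDL genes measured also held Amn and Apoc2, which differed but were outside the search. Among all 8348 features tested 476, or 5.70%, differed between these series, so such calls are not rare on these arrays. On the 1st array of each mouse alone 0 features passed, so a call lost there is not particular to a gene. The sterol exporter Abcg1 averaged -0.37 in SY and -0.02 in TP mice, a difference of -0.36 (limma, adjusted p = 0.0171). It lost its call without SY521RL, SY524ROB+L or TP4205 (limma, adjusted p 0.0682 to 0.0727) and on either array of each mouse alone. Atp5b, a subunit of ATP synthase that has also been described as a surface receptor for apolipoprotein A-I, averaged 0.25 in SY and 0.03 in TP mice, a difference of 0.21 (limma, adjusted p = 0.0497). That call held without SY518Z but ended without any other single mouse (limma, adjusted p 0.051 to 0.156) and on either array alone. The Kupffer cell marker Adgre1 averaged -0.18 in SY and 0.13 in TP mice, a difference of -0.31 (limma, adjusted p = 0.0483). Its call held without SY518Z or TP4163 but ended without any other single mouse (limma, adjusted p 0.0804 to 0.156) and on either array alone. Smarcal1, named for its likeness to Pltp, averaged -0.07 in SY and 0.32 in TP mice, a difference of -0.39 (limma, adjusted p = 0.0165). Smarcal1 was chosen for following Pltp over the same mice, with Pltp at -0.77 in SY and -0.55 in TP mice. The difference for Smarcal1 is therefore not independent of the Pltp values. It lost its call without SY521RL, SY524ROB+L or SY522ROB (limma, adjusted p 0.0703 to 0.0739) and on the 1st array of each mouse (limma, adjusted p = 0.191). Apoa1, Lcat and Pltp did not pass this comparison.

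By Dixon's criterion 2 of 55 groups of 4 or 8 mice had a single value far from the rest, both in SY518Z, the mouse with 1 array of each code; chance gives about 1 in 20. Apoa2 stood at 0.43 in SY518Z and between -0.26 and 0.00 in the other mice. St6gal1 stood at 0.12 in SY518Z and between -0.54 and -0.26 in the other mice. No value of Apoa1, Lcat or Pltp was found this way.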

How the results depend on the processing

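Pltp against 0 kept its sign and its call under all 26 alternatives run (means -0.78 to -0.55). Apoa1 kept its sign under all 26 and lost its call under 2: a minimum of 1.2-fold (-0.52) and TP mice alone (-0.53). Lcat kept its sign and lost its call under 6: a minimum of 1.2-fold and the spread of control mice (both -0.14), SY (-0.15) or TP mice (-0.13) alone, and c3z (-0.15) or bl7 arrays (-0.11) alone, which also hold fewer mice. The count called against 0 was 123 with a minimum of 1.2-fold, 1811 with the spread of control mice, 2159 in SY mice and 2191 on c3z arrays, against 3622. With the spread of control mice 2 of the other HDL genes were called positive, against 4. SY minus TP for Pltp passed with arrays scaled (-0.36), quantile normalized (-0.30) or blocked by mouse (-0.23), and ranged from -0.27 to -0.18 with a mouse left out. For Apoa1 it turned sign when scaled (-0.08) or quantile normalized (-0.04) and ranged from -0.19 to 0.18 with a mouse left out; for Lcat it was 0.00 on the 1st array of each mouse and ranged from -0.07 to 0.03. The count between SY and TP mice was 0 on 1st arrays (limma; 1467 of 8175 at an unadjusted p under 0.05), 228 on 2nd arrays and 43 to 1249 with a mouse left out (1249 without SY518Z), against 476. Within mice, Pltp minus Lcat (-0.62 SY, -0.41 TP) and Apoa1 minus Lcat (-0.36 SY, -0.40 TP) could not pass with 4 mice. With a mouse left out Apoa1 minus Lcat ran from -0.44 to -0.30 and Pltp minus Apoa1 from -0.25 to -0.10. The cause of these changes was not tested. The rounding of ratios to 1 decimal limits what can be read from Lcat.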
